A study of Homo sapiens with 24 samples.

Results

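The transcripts described here encode 8 proteins that bind AU-rich elements, the adenine- and uridine-rich stretches in the 3′ untranslated regions (UTRs) of many short-lived mRNAs. The members were given by name, with no threshold on their values, and all 8 were found among the 58676 gene rows of the count tables. ZFP36, ZFP36L1, ZFP36L2 and KHSRP were placed as destabilizers, HNRNPD as a destabilizer that also stabilizes some targets, ELAVL1 as a stabilizer, and TIA1 and TIAL1 as translational silencers. Tristetraprolin (ZFP36) and its relatives ZFP36L1 and ZFP36L2 are zinc finger proteins that bring the CCR4-NOT deadenylase to an mRNA, so that the poly(A) tail is shortened and the transcript is degraded. KHSRP binds through KH domains and recruits decay enzymes including the exosome. HNRNPD, also called AUF1, is made as several isoforms with differing effects on stability, whereas HuR (ELAVL1) protects bound mRNAs. TIA1 and TIAL1 hold mRNAs back from translation and gather in stress granules. Because several of these proteins can bind their own mRNAs or each other's, the level of each mRNA and its lifetime are usually considered side by side.

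All measurements came from HepG2, a cell line of human liver cancer origin, which received a control siRNA without a target (siControl) or an siRNA against 1 of the RNA-binding proteins IGF2BP1, IGF2BP2 and IGF2BP3 (siIGF2BP1, siIGF2BP2 and siIGF2BP3). Every condition was collected untreated (0 h) and after 3 h and 6 h of actinomycin D at 5 ug per ml, which stops transcription, with 2 replicates, giving 12 groups and 24 RNA-seq libraries. The question addressed by the design was how the loss of each IGF2BP alters mRNA stability. The libraries held from 31843248 to 74252042 reads assigned to genes and from 50889 to 119088 reads of the ERCC spike-in, an added set of synthetic RNAs. The study calls the replicates independent and split each transfected plate over the 3 time points, but the labels do not tie replicates to plates, so p-values measure the spread between these samples, which may be technical.

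The labels were borne out by the targeted genes at 0 h. IGF2BP1 fell by 2.24 on the log2 scale in siIGF2BP1, IGF2BP2 fell by 1.93 in siIGF2BP2 and IGF2BP3 fell by 1.49 in siIGF2BP3, against siControl. The liver genes ALB (10700 to 17400 CPM, counts scaled to the total of the library) and AFP (11600 to 18400 CPM) were abundant in all 24 libraries. The 7 markers of leukocytes, endothelium, fibroblasts and basal epithelium summed to 0.823 to 2.06 CPM per library, and PTPRC, COL1A2 and KRT5 never exceeded 1 read.

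The 3′ UTRs of the members were searched for ATTTA, the core AU-rich pentamer written in DNA letters, and for the longer TTATTTATT to which the ZFP36 family binds best. Only the sense strand was read, overlapping matches were counted separately, and 1 canonical GENCODE 44 transcript was used per gene. For each of 6 members below, the 30-base window with the most ATTTA copies is shown 5′ to 3′, with every ATTTA in capitals. The ZFP36 family is shown because these were the short-lived members, and ELAVL1 because its window held 4 copies, the most of any member. KHSRP and HNRNPD are shown because these were the 2 members whose levels moved.
ZFP36, chr19:39409188-39409217 (hg38, plus strand): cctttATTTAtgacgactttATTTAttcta
ZFP36L1, chr14:68788345-68788374 (hg38, minus strand): cttATTTAacttatcaaaacgtATTTAttg
ZFP36L2, chr2:43223452-43223481 (hg38, minus strand): tgaaaactATTTAacttATTTAttatcttg
ELAVL1, chr19:7961837-7961866 (hg38, minus strand): ATTTAtacctATTTAtgtATTTATTTAttg
KHSRP, chr19:6413219-6413248 (hg38, minus strand): aatggtgattgaaATTTAcaaactttgtgt
HNRNPD, chr4:82353569-82353598 (hg38, minus strand): tgtagccattaagATTTAtatgaatatttt

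ATTTA was found in 68.7% and TTATTTATT in 8.6% of the 3′ UTRs of 19195 coding genes. ZFP36 carried 5 copies of ATTTA in 708 bases, and 94.0% of 3′ UTRs within 10% of its length had fewer. ZFP36L1 carried 8 copies in 1871 bases (84.5% had fewer) and ZFP36L2 carried 5 in 1917 bases (58.9% had fewer). The nonamer TTATTTATT occurred 1 time in each of these 3 genes and in ELAVL1, and in none of the other 4 members. Among UTRs of like length it was found in 5.04% (ZFP36), 9.64% (ZFP36L1), 9.89% (ZFP36L2) and 21.1% (ELAVL1). KHSRP had a single ATTTA in 1922 bases and HNRNPD had 2 in 1687 bases, at or below the common number for UTRs of that length (10.7% and 29.4% had fewer). ELAVL1 and TIA1 each held 13 copies, in 4910 bases (59.5% had fewer) and 3275 bases. TIAL1 held 5 in 2200 bases (51.1% had fewer). For TIA1, 85.2% of like UTRs had fewer ATTTA copies, and it was among the slowly lost transcripts described below. Whether the number of copies goes with the rate of loss was not tested.

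The genes lie on 5 chromosomes of hg38: ZFP36 (ENSG00000128016.5, chr19:39406847-39409412), KHSRP (ENSG00000088247.17, chr19:6413102-6424811) and ELAVL1 (ENSG00000066044.14, chr19:7958573-8005659) on chromosome 19, ZFP36L2 (ENSG00000152518.7, chr2:43222402-43226606) and TIA1 (ENSG00000116001.15, chr2:70209444-70248660) on chromosome 2, and ZFP36L1 (ENSG00000185650.9, chr14:68787660-68796253), HNRNPD (ENSG00000138668.18, chr4:82352498-82374503) and TIAL1 (ENSG00000151923.17, chr10:119571802-119597029) on chromosomes 14, 4 and 10. The library kit keeps strand, but the strand and overlap settings of the counting are not given in the sources used here. Exons of an unnamed gene on the opposite strand cover 22.4% of the exonic length of ZFP36L2, so its reads carry some uncertainty. For ZFP36L1, 7.92% is shared with a gene on the same strand, and for ELAVL1, 7.58% with a gene on the opposite strand. The shared part was 3.56% or less for the other 5 members.

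Before actinomycin D, the members spanned more than an order of magnitude in siControl. On a per-length scale (CPM per kilobase of exon, mean ± SD, n = 2), HNRNPD stood at 63.5 ± 0.00272 and KHSRP at 61.3 ± 3.45, the pair of neighbours that did not differ beyond their spread. ZFP36L2 followed at 26.0 ± 1.04, then ELAVL1 at 14.5 ± 0.309, TIA1 at 11.7 ± 0.221, ZFP36L1 at 10.8 ± 0.485 and TIAL1 at 9.12 ± 0.413. ZFP36, the inducible founding member of its family, was lowest at 5.38 ± 0.0439. Among 13094 genes these levels ran from percentile 57.2 (ZFP36) to percentile 96.9 (HNRNPD), so all 8 lay above the middle of these genes, ZFP36 only slightly. On this scale ZFP36L2 was the highest of the ZFP36 family. The scale divides by all annotated exons of a gene, 3693 bases for ZFP36L2 and 6466 for ZFP36L1. Without it the siControl means were 96.2 and 69.7 CPM, a smaller gap. The order of the 8 per length was the same in the knockdowns apart from HNRNPD and KHSRP, which changed places.

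KHSRP was the member whose level moved most clearly, and it moved the same way in every knockdown. Its level was 303.7 and 328.8 CPM in the siControl replicates, 375.1 and 376.4 CPM in siIGF2BP1, 376.5 and 355.1 CPM in siIGF2BP2, and 389.2 and 376.4 CPM in siIGF2BP3. All 6 knockdown libraries lay above both control libraries. KHSRP rose 1.19-fold in siIGF2BP1 (log2 difference 0.25, SE 0.0367, edgeR adjusted p = 3.03e-06), 1.16-fold in siIGF2BP2 (0.21, SE 0.0367, adjusted p = 6.25e-05) and 1.21-fold in siIGF2BP3 (0.28, SE 0.0368, adjusted p = 1.21e-06). These 3 comparisons share the same siControl libraries and are not independent of each other. Scaling to the ERCC spike-in kept the direction and left siIGF2BP1 short of the threshold (0.22, adjusted p = 0.107). In bulk RNA, a change in the number of cells and a change in RNA per cell cannot be told apart.

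HNRNPD showed a smaller difference in the same direction. It stood at 445.3 and 445.3 CPM in siControl, 483.4 and 478.4 CPM in siIGF2BP1, 468.0 and 476.7 CPM in siIGF2BP2, and 486.6 and 511.1 CPM in siIGF2BP3. Again no knockdown library reached down to the controls. The rise passed the test in siIGF2BP3 (1.12-fold, log2 difference 0.16, SE 0.0353, adjusted p = 0.0015) and in siIGF2BP1 (1.08-fold, 0.11, SE 0.0353, adjusted p = 0.0256). In siIGF2BP2 the difference was 0.08 (SE 0.0353, adjusted p = 0.124). The siIGF2BP1 call was lost without any 1 of the 4 libraries compared (adjusted p from 0.0793 to 0.148), and the siIGF2BP3 call was lost without replicate 2 of siIGF2BP3 (0.13, adjusted p = 0.0784). On the ERCC scale neither passed (adjusted p = 0.779 and 0.0594).

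**Figure D1:**
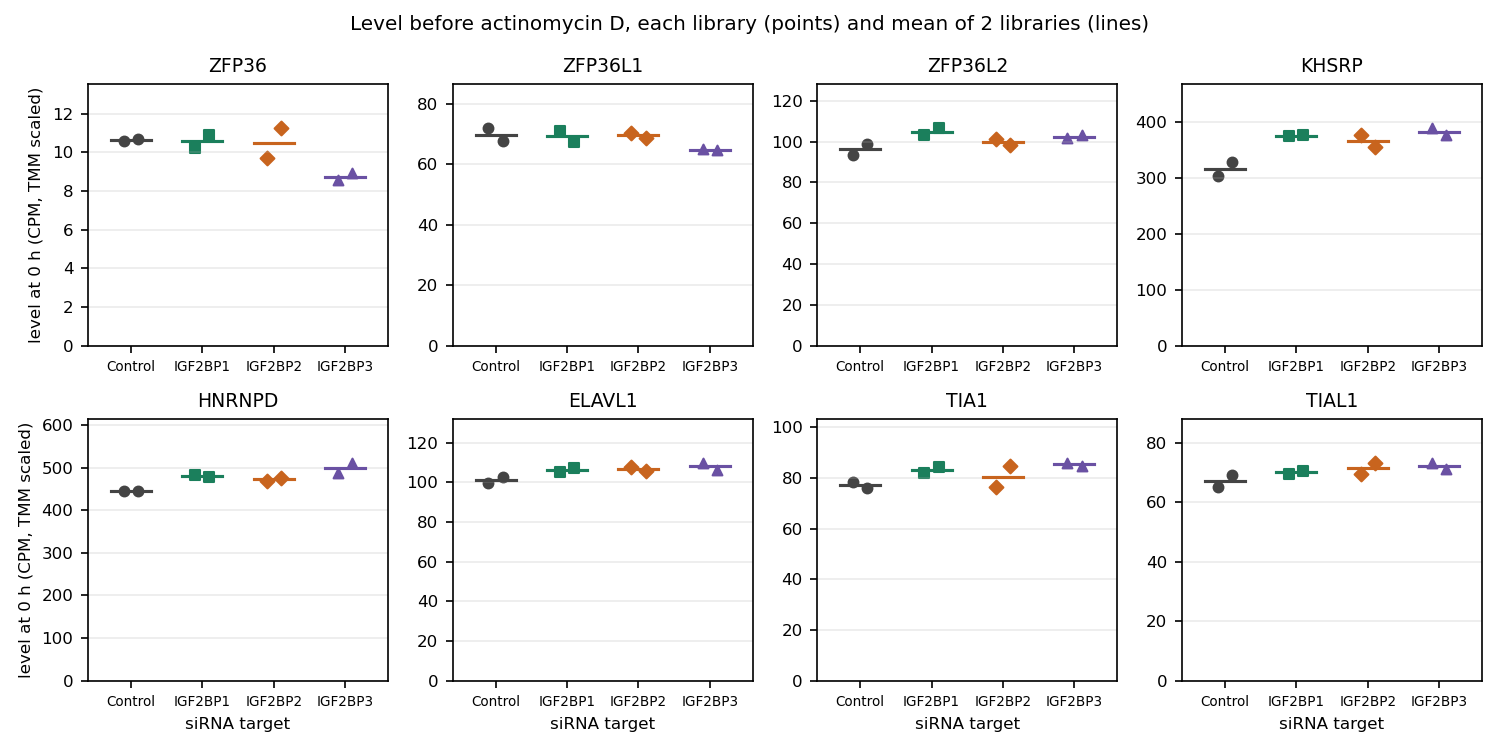
Level of each of the 8 transcripts at 0 h in CPM (TMM scale, axis from 0), with a point for each library and a line at the mean of the 2 replicates of siControl, siIGF2BP1, siIGF2BP2 and siIGF2BP3. KHSRP and HNRNPD lie above both siControl libraries in all 6 knockdown libraries, while ZFP36 is lower in both siIGF2BP3 libraries (8.563 and 8.921 CPM) than in both siControl libraries (10.57 and 10.69 CPM) without passing the test.

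In all, 2 of 8 members were called in siIGF2BP1, 1 in siIGF2BP2 and 2 in siIGF2BP3, each time as higher. Among all 13136 genes tested, 15.9%, 12.1% and 9.39% were called in either direction, and 9.43%, 6.65% and 4.93% were called higher. Over 8 members, such shares correspond to about 1 call, so the counts do not set the members apart from that background.

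The zinc finger genes did not pass the main test in any knockdown. ZFP36 measured 10.57 and 10.69 CPM in siControl and 8.563 and 8.921 CPM in siIGF2BP3, a log2 difference of -0.28 with a 95% interval of -0.596 to 0.0305 (adjusted p = 0.309). Its values in siIGF2BP1 (10.21 and 10.92 CPM) and siIGF2BP2 (9.712 and 11.26 CPM) overlapped the controls. ZFP36L1 lay between 64.82 and 71.94 CPM, and ZFP36L2 between 93.48 and 106.6 CPM, over all 8 untreated libraries. For ZFP36L2 the interval of the difference in siIGF2BP1 ran from -0.004 to 0.249. With only the 4 libraries compared, edgeR called this difference (0.1075, adjusted p = 0.0366). With levels averaged over 0, 3 and 6 h, edgeR called ZFP36L1 lower in siIGF2BP3 (-0.1955, adjusted p = 0.00175).

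ELAVL1, the stabilizer, measured 99.73 and 102.8 CPM in siControl and 105.3 to 109.8 CPM in the knockdowns, with log2 differences of 0.07, 0.07 and 0.09 that did not pass the test (adjusted p = 0.331, 0.315 and 0.198). TIA1 came closest of the uncalled members. Its siControl libraries held 78.27 and 76.21 CPM and its siIGF2BP3 libraries 86.02 and 84.87 CPM, a log2 difference of 0.15 (SE 0.0491, adjusted p = 0.053) that DESeq2 called (adjusted p = 0.0328). TIAL1 differed by 0.06, 0.09 and 0.10, all with intervals that include 0. The plot of differences below sets the 8 members side by side.

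**Figure D2:**
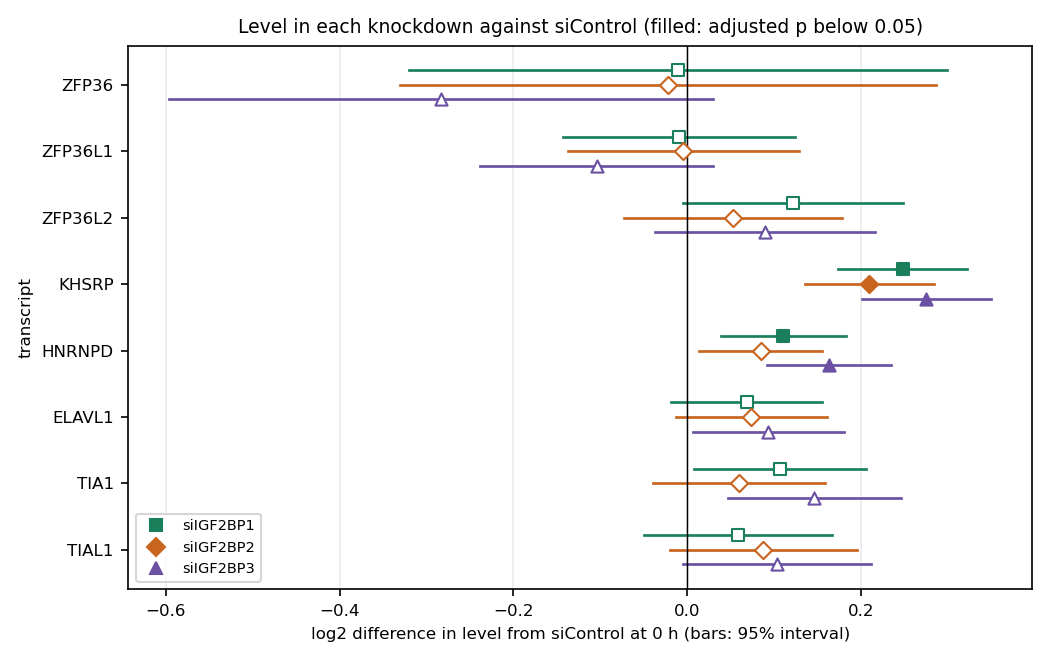
Log2 difference of the 0 h level from siControl for each member in each knockdown (TMM scale), with the 95% interval as a bar and a filled point where the edgeR adjusted p was below 0.05. KHSRP is filled in all 3 knockdowns and HNRNPD in siIGF2BP1 and siIGF2BP3, both on the side of higher level; on the ERCC scale only KHSRP in siIGF2BP2 and siIGF2BP3 remained past the threshold, with no change of direction for either gene.

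Set against each other, the knockdowns gave no call for any member. Of 8 members, 0 passed between siIGF2BP1 and siIGF2BP2 (18.7% of all genes did), 0 between siIGF2BP1 and siIGF2BP3 (14.3%) and 0 between siIGF2BP2 and siIGF2BP3 (9.19%), and DESeq2 also called 0. At an unadjusted p under 0.05 there was 1, HNRNPD between siIGF2BP2 and siIGF2BP3 (-0.08, 95% interval -0.15 to -0.00677, edgeR adjusted p = 0.19). For KHSRP, the intervals of the 3 differences between knockdowns stayed within -0.14 and 0.113, smaller in size than its smallest rise over siControl (0.21).

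After actinomycin D, the members fell into widely separated rates in siControl. Values below are percentages of the 0 h mean on the ERCC scale, where the spike-in was added per amount of total RNA. ZFP36 was down to 2.948 and 3.902% at 3 h and stood at 3.168 and 3.944% at 6 h. ZFP36L2 was at 9.227 and 8.71% at 3 h and at 3.668 and 3.616% at 6 h, and ZFP36L1 was at 14.9 and 15.21%, then 9.106 and 8.568%. The 3 zinc finger transcripts were therefore largely gone by the earliest time sampled.

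TIAL1 lost its mRNA at an intermediate rate, with 61.11 and 56.72% left at 3 h and 38.45 and 39.8% at 6 h. Its paralog TIA1 had 84.11 and 86.26% left at 3 h and 72.47 and 71.93% at 6 h, with no overlap between the 2 genes at either time. ELAVL1 had 87.94 and 82.83%, then 61.57 and 59.24%. The abundant KHSRP had 92.22 and 93.19%, then 78.3 and 66.94%, overlapping TIA1 at 6 h. HNRNPD kept the most, with 97.25 and 95.8% at 3 h and 83.23 and 78.37% at 6 h.

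**Figure D3:**
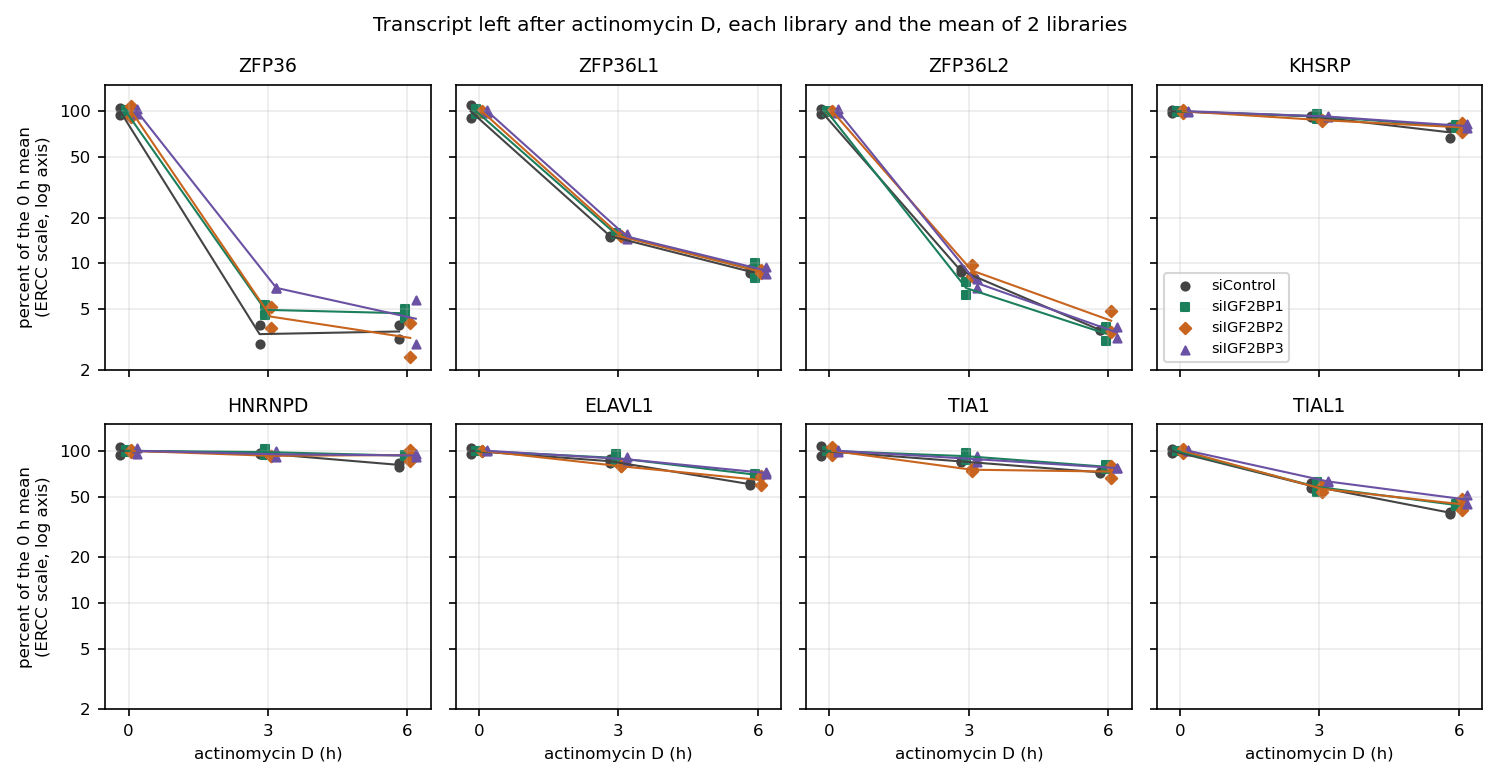
Percent of the 0 h mean left at 0, 3 and 6 h of actinomycin D for each member (ERCC scale, log axis), with a point for each library and a line through the means of 2 replicates for each of the 4 conditions. In siControl the means at 6 h are 3.56% for ZFP36, 3.64% for ZFP36L2 and 8.84% for ZFP36L1, 39.1% for TIAL1, and between 60.4% and 80.8% for ELAVL1, TIA1, KHSRP and HNRNPD, and on the TMM scale KHSRP, HNRNPD and TIA1 rise over 6 h instead of falling and ELAVL1 is not called.

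The slope of the log2 level on time, fitted as a straight line over the 3 time points, summarized these losses. For ZFP36 the loss was not even, with means of 3.42% left at 3 h and 3.56% at 6 h in siControl. Its slope below is therefore not the fall measured at 6 h. Over 6 h in siControl, ZFP36 fell by 5.17 on the log2 scale (SE 0.87), ZFP36L2 fell by 4.87 (SE 0.601) and ZFP36L1 fell by 3.54 (SE 0.456), among the fastest 0.952%, 1.23% and 4.96% of genes. TIAL1 fell by 1.35 (SE 0.118). ELAVL1 fell by 0.73 (SE 0.0829), close to the median of all genes of -0.885, while TIA1 fell by 0.47 (SE 0.0935), KHSRP fell by 0.46 (SE 0.0762) and HNRNPD fell by 0.31 (SE 0.0799). All 8 were called lower, as were 80.3% of genes. At 3 h and 6 h ZFP36 measured 0.3774 to 0.8375 CPM, below the filter of 1 CPM in every library. ZFP36 entered the tests only through its 0 h libraries, so the call of its loss is not independent of the filter.

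The direction for the slower members depends on the scale. TMM scaling, which sets most genes to no change, moved the median of all genes from -0.885 to -0.0159. Relative to it the ZFP36 family still fell (ZFP36 -4.33, ZFP36L2 -4.03, ZFP36L1 -2.68), as did TIAL1 (-0.49), whereas HNRNPD (0.56), TIA1 (0.40) and KHSRP (0.40) rose and ELAVL1 (0.14, adjusted p = 0.13) did not pass. With library size as the scale, HNRNPD rose (0.24, adjusted p = 0.000102), ELAVL1 fell (-0.18, adjusted p = 0.0298), and KHSRP (0.08, adjusted p = 0.273) and TIA1 (0.08, adjusted p = 0.177) did not pass. HNRNPD alone of the slower 4 was thus called higher on both of these scales.

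Half-lifetimes, computed as ln2 over the first-order rate constant that the study uses, with the rate averaged over the 3 h and 6 h points, repeated this order. In siControl ZFP36 had 0.825 h (0.78 to 0.872 h over the 8 choices of 1 library per time point), ZFP36L2 had 1.02 h (1.00 to 1.04 h) and ZFP36L1 had 1.34 h (1.27 to 1.42 h). TIAL1 had 4.17 h (3.81 to 4.6 h), below the median of 6.25 h over the 11008 genes with a value. ELAVL1 had 10.1 h (7.97 to 14.1 h), TIA1 12.9 h (9.25 to 22.1 h) and KHSRP 17.6 h (13.1 to 26.7 h), whose ranges overlap in part. HNRNPD had 29.3 h, but with a range of 16.1 to 206 h, since little was lost within 6 h.

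Along the roles, the 3 zinc finger destabilizers were the shortest-lived in siControl, and the silencer TIAL1 came next at 4.17 h. By point value KHSRP and HNRNPD were the longest-lived, above the stabilizer ELAVL1 and the silencer TIA1. The ranges of TIA1 and KHSRP overlap each other and that of HNRNPD, so these transcripts are not set apart by role. The values for the ZFP36 family lie below the sampling interval of 3 h, so they rest on how much was left at 3 h and 6 h. A straight slope over the time points gave 1.16 h for ZFP36, 1.23 h for ZFP36L2 and 1.70 h for ZFP36L1.

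In the knockdowns the ZFP36 family stayed the shortest-lived. The half-lifetimes of ZFP36 were 0.917, 0.862 and 0.979 h in siIGF2BP1, siIGF2BP2 and siIGF2BP3, in that order. ZFP36L1 stayed within 1.34 and 1.36 h, and ZFP36L2 within 0.954 and 1.04 h, in all 4 conditions. In siIGF2BP3 the values of ZFP36 (0.979 h, 0.923 to 1.03 h) and ZFP36L2 (0.972 h, 0.937 to 1.01 h) overlapped, and in siControl they did not. TIAL1 had 4.35, 4.24 and 4.99 h.

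The slower members varied more, with wider ranges. ELAVL1 had 14.4 h in siIGF2BP1 (11.4 to 19.3 h), 9.12 h in siIGF2BP2 (8.33 to 10.0 h) and 14.0 h in siIGF2BP3 (11.9 to 17.0 h). TIA1 had 20.6, 9.36 and 16.1 h, and KHSRP had 21.9, 16.2 and 21.5 h, with ranges that overlapped siControl in each case. HNRNPD had 75.8 h (31.4 to 143 h), 38.4 h (23.6 to 96.2 h) and 47.5 h (19.7 to 80.1 h). In siIGF2BP1 and siIGF2BP3 only 6 of the 8 choices of libraries gave a value. The choices left out showed no loss, so the upper ends there are not bounded and the values are poorly determined. The median of all genes also lay above siControl in each knockdown (6.94, 6.53 and 7.03 h).

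**Figure D4:**
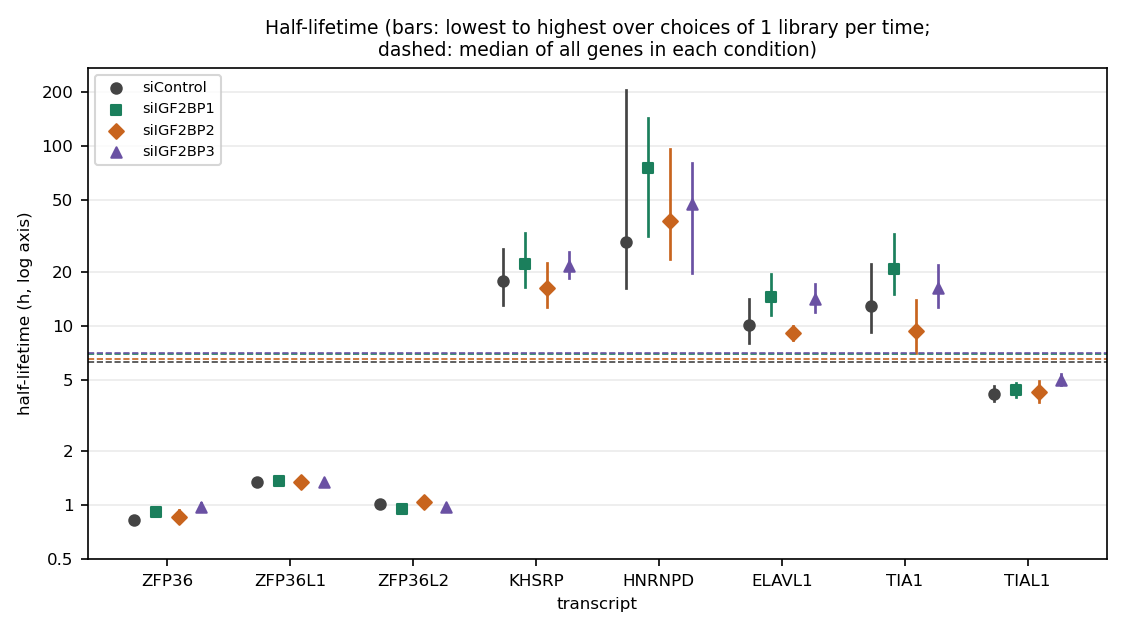
Half-lifetime in hours (log axis, ERCC scale) of each member in the 4 conditions, with a bar from the lowest to the highest value over the choices of 1 library per time point and a dashed line at the median of all genes in each condition. The ZFP36 family sits between 0.825 and 1.36 h in all conditions, TIAL1 between 4.17 and 4.99 h, and the other 4 members above the medians of all genes.

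Whether loss differed between conditions was tested on the difference of slopes, and no member passed. Of 8 members, 0 were called by edgeR in siIGF2BP1 against siControl (0.0152% of all genes were), 0 in siIGF2BP2 (0% of genes) and 0 in siIGF2BP3 (0.0228% of genes). Between the knockdowns 0 members and 0% of genes were called in each of the 3 comparisons. The members also gave 0 calls at an unadjusted p under 0.05, and 0 by DESeq2. Across all genes, 1436, 896 and 2113 reached an unadjusted p under 0.05 in the 3 knockdowns against siControl.

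The member nearest to the threshold was ELAVL1 in siIGF2BP3. In siControl 61.57 and 59.24% of its mRNA was left at 6 h, and in siIGF2BP3 70.51 and 72.3%, with no overlap between the groups. The difference of slopes over 6 h was 0.24 (SE 0.117, 95% interval -0.00151 to 0.483, adjusted p = 0.311), beside a median of 0.218 over all genes in the same comparison. For TIAL1 in siIGF2BP3, with 50.88 and 44.45% left at 6 h, the difference was 0.28 (SE 0.166, adjusted p = 0.362). Both differences were thus close to the shift shared by most genes on the ERCC scale.

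HNRNPD showed a similar difference in each knockdown. At 6 h, 83.23 and 78.37% was left in siControl, 92.61 and 93.44% in siIGF2BP1, 86.09 and 101.4% in siIGF2BP2, and 91.39 and 94.99% in siIGF2BP3. Every knockdown library lay above both controls. This takes no account of the spread at 0 h, where the siControl libraries stood at 106.4 and 93.58% of their mean. The differences of slopes were 0.20, 0.21 and 0.21 (SE 0.113, 0.112 and 0.112, edgeR adjusted p = 0.47, 0.643 and 0.34), beside medians of 0.187, 0.171 and 0.218 over all genes. Accordingly HNRNPD was the 1 member whose loss did not pass the edgeR test within the knockdowns (-0.10, -0.09 and -0.10 over 6 h, adjusted p = 0.244, 0.292 and 0.257). In each, 7 of 8 members were called lower, as were 69.1%, 71.3% and 67.2% of genes. The calls of ZFP36 among these are again not independent of the filter.

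For the ZFP36 family the slope fit left a wide interval. The differences of slopes lay between -0.33 and 0.34 for ZFP36 with SEs of 1.27 to 1.35, and all 3 intervals against siControl span more than 5 log2 units. Their loss was not even over the intervals, as given next, and ZFP36 was counted with only 12 to 52 reads in each library at 3 h and 6 h. The change from 0 to 6 h alone was more precise, with SEs of 0.149 to 0.152 for ZFP36L1, 0.152 to 0.16 for ZFP36L2 and 0.355 to 0.383 for ZFP36. By this measure the differences from siControl in siIGF2BP1, siIGF2BP2 and siIGF2BP3 were 0.03, -0.0064 and 0.02 for ZFP36L1, -0.08, 0.21 and -0.05 for ZFP36L2, and 0.40, -0.16 and 0.30 for ZFP36, and none passed (edgeR adjusted p of 0.475 or more). Over the 0 to 3 h interval alone, ZFP36 kept 6.854 and 6.918% in siIGF2BP3 against 2.948 and 3.902% in siControl, a log2 difference of 0.99 (SE 0.362, adjusted p = 0.835). ZFP36L2 kept 7.542 and 6.193% in siIGF2BP1 against 9.227 and 8.71%, a difference of -0.38 (SE 0.145, adjusted p = 1.0). Neither passed after adjustment over all genes, and by 6 h the libraries of both pairs overlapped.

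The loss of the ZFP36 family was concentrated in the interval from 0 to 3 h. In siControl ZFP36 changed by -4.84 on the log2 scale from 0 to 3 h and by 0.03 (SE 0.326) from 3 to 6 h. Its 3 h and 6 h levels lay below the filter of 1 CPM, so its late change compares values near the floor. ZFP36L2 changed by -3.48 and then by -1.30, and ZFP36L1 by -2.73 and then by -0.77. A test of the early minus the late change, chosen after seeing the data, called these 3 members and no other as lower (ZFP36 -4.88, SE 0.516; ZFP36L2 -2.18, SE 0.193; ZFP36L1 -1.96, SE 0.19), and 10.9% of all genes were called lower.

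The same 3 members were called in each knockdown, where 10.8%, 17.8% and 11.3% of genes were called lower. ZFP36 passed the filter only through its 0 h libraries, so its calls in siControl and the knockdowns are not independent of the filter. Early minus late values were -4.25, -3.98 and -3.21 for ZFP36 in siIGF2BP1, siIGF2BP2 and siIGF2BP3. They were -2.87, -2.39 and -2.66 for ZFP36L2 and -1.89, -1.96 and -1.98 for ZFP36L1. TIAL1 was called in siIGF2BP2 as well (-0.49, adjusted p = 0.0136), a call that was lost under TMM scaling, under library-size scaling and without any of 3 single libraries (replicate 2 at 0 h, replicate 1 at 3 h or replicate 2 at 6 h of siIGF2BP2, adjusted p = 0.0693, 0.355 and 0.104). No other member was called in any condition on the ERCC scale.

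**Figure D5:**
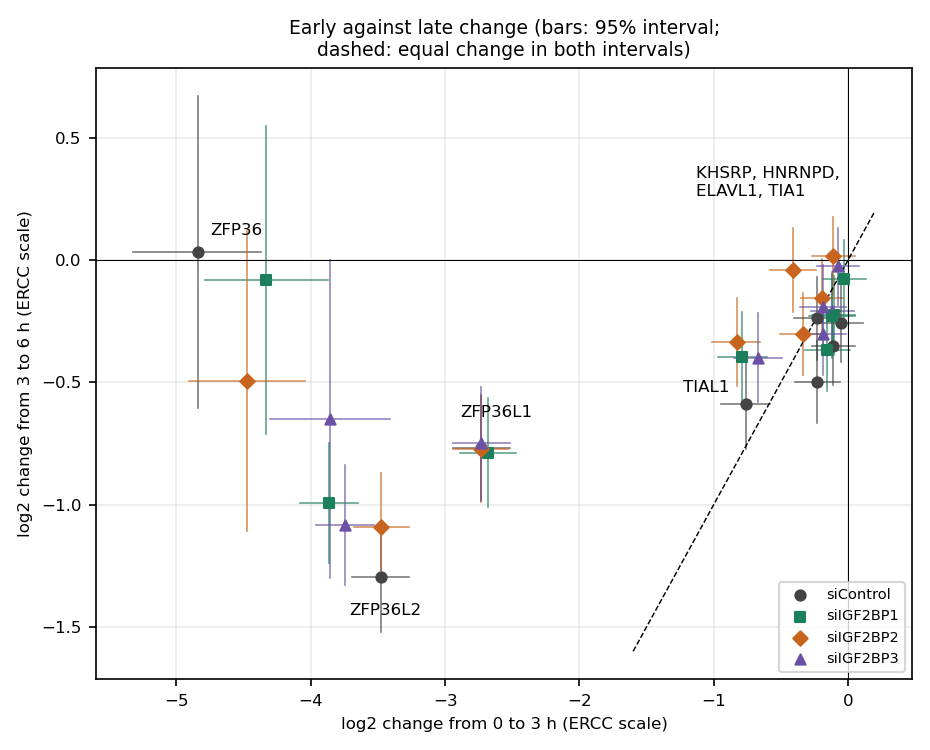
Log2 change from 0 to 3 h (horizontal axis) against that from 3 to 6 h (vertical axis) for each member and condition (ERCC scale), with 95% intervals and a dashed line where both intervals lost equally. The points of ZFP36, ZFP36L1 and ZFP36L2 lie far from the line on the side of early loss, with early changes of -2.68 or below, and the other members lie near it. On the TMM scale these 3 kept that position, while KHSRP and ELAVL1 were called on the other side in all 4 conditions and HNRNPD in siControl.

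Over the 12 groups, the patterns of the members split along the same lines. On log2 CPM, ZFP36L1 and ZFP36L2 correlated with r = 0.997, and the 2 genes most like ZFP36L1 among 9723 were PIM3 and RSBN1 (r = 0.998 for each), those most like ZFP36L2 were ZCCHC8 and HJURP (0.998 for each), and those most like ZFP36 were REL and TRIM11 (0.997 and 0.996). TIAL1 was nearest to NFYA and SPIN3 (0.991 for each). HNRNPD was nearest to RANBP1 and HMGB3 (0.996 and 0.995), KHSRP to ARHGAP33 and KNG1 (0.985 for each), ELAVL1 to MRFAP1 and ANLN (0.97 and 0.957), and TIA1 to TLCD4 and SLC39A4 (0.964 and 0.962). These correlations are descriptions over 12 groups that share 3 time points and the TMM scale, so that any pair of fast or slow transcripts is alike in them.

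Other proteins that bind AU-rich or related 3′ elements differed by small amounts at 0 h on the TMM scale. Of 20 listed, 17 were tested, and 2 were higher and 3 lower in siIGF2BP1, 5 higher in siIGF2BP2 and 3 higher in siIGF2BP3, where 15.9%, 12.1% and 9.39% of all genes were called. FUBP1 (-0.16), HNRNPDL, a paralog of HNRNPD (-0.16), and HNRNPAB (-0.14) fell in siIGF2BP1, where the roquin paralog RC3H2 rose (0.20). HNRNPAB rose by 0.12 in siIGF2BP2. HNRNPC and nucleolin (NCL) rose in siIGF2BP2 (0.11 and 0.08) and in siIGF2BP3 (0.10 and 0.09). The median difference of the list was 0.00543, 0.0166 and -0.00207, beside 0.00884, 0.0164 and 0.00347 over all genes. On the ERCC scale these genes kept their direction but 0 of the 17 were called against siControl in any knockdown by edgeR. Of all 13136 genes, 649, 732 and 471 were called on that scale.

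The decay enzymes and signalling partners that act with the members held a few larger differences. All 36 listed genes were tested, and 4 were higher and 2 lower in siIGF2BP1, 1 higher and 2 lower in siIGF2BP2, and 5 higher and 1 lower in siIGF2BP3. Of all genes, 15.9%, 12.1% and 9.39% were called in these comparisons. XRN1, the cytoplasmic 5′ to 3′ exonuclease, rose by 0.43 in siIGF2BP1 (SE 0.0682) and by 0.36 in siIGF2BP3 (SE 0.0687). The decapping enzyme DCP2 rose by 0.40 in siIGF2BP1 (SE 0.0654) and fell by 0.74 in siIGF2BP2 (SE 0.068), and the difference between these knockdowns was 1.146 (SE 0.0681, adjusted p = 5.33e-16). MAPKAPK2, the kinase that phosphorylates tristetraprolin, fell by 0.22 in siIGF2BP1 (SE 0.0677). EDC4, a scaffold of the decapping complex, rose by 0.20 in siIGF2BP1 (SE 0.0465). On the ERCC scale no direction changed, and XRN1 in both knockdowns and DCP2 in all 3 comparisons were still called while MAPKAPK2 and EDC4 were not (adjusted p = 0.151 and 0.348). In siControl 33 of the 36 were called lower over 6 h on the ERCC scale, with a median of -1.29, and 13 of the 17 other binding proteins, with a median of -0.838, whereas TMM scaling gave 9 higher and 23 lower of the 36 and 8 higher and 6 lower of the 17. Among all 13136 genes, 80.3% were called lower on the ERCC scale, and TMM scaling gave 4773 higher and 5085 lower. For a change of loss against siControl, 0 genes of either list were called by edgeR or DESeq2. Of all genes, edgeR called 0.0152%, 0% and 0.0228% in siIGF2BP1, siIGF2BP2 and siIGF2BP3. At an unadjusted p under 0.05 in edgeR there were 8, 3 and 11 of the 36 and 1, 0 and 3 of the 17 in siIGF2BP1, siIGF2BP2 and siIGF2BP3. Over all 13136 genes there were 1436, 896 and 2113.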

How the data were processed

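RNA of 24 HepG2 libraries (4 siRNA conditions, 3 time points of actinomycin D, 2 replicates) had been sequenced single-end from a strand-keeping kit, with ERCC spike-in added per amount of total RNA. The authors deposited counts of reads per gene made with HTSeq and annotated with GENCODE v29, and the submitters' processing notes name HISAT2 2.1.0 and Trimmomatic 0.39. The handling of multi-mapped and overlapping reads is not given in the sources used here. Counts were used as deposited, after leaving out 5 summary rows (13.551 to 17.064% of reads) and 45 rows of the Y copy of the pseudoautosomal genes, and 92 ERCC rows served as scale. Symbols were found for 58207 of 58676 genes, and positions and UTR sequences were taken from GENCODE 44 (hg38). The gene bodies and windows printed refer to that build.

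Genes with at least 1 CPM in at least 2 libraries (13136) were tested with edgeR 4.0.16 in R 4.3.3 (quasi-likelihood test, two-sided, Benjamini-Hochberg adjustment over all genes, threshold 0.05). Levels used TMM scaling and 12 group means over all libraries. Loss used the ERCC total as scale, with an intercept and a slope per condition. DESeq2 1.42.0, other scalings and filters, a replicate block and leaving out each library were alternatives, and the edgeR level and slope fits were tested on simulated data. Likeness used log2(CPM + 0.01) and took in genes whose CPM averaged 5 or more. The 8 members were named in full, and from each list of other genes at most the 4 called genes per comparison with the largest difference, a mean of at least 5 CPM and, for levels, both replicates on 1 side of both controls. For each member the 2 most alike genes were named. Members and lists were chosen with earlier results of these data known. No replicates were merged, since every pair differed by more than counting error (chi-square over its degrees of freedom from 3.25 to 8.56). Depth allowed even ZFP36 to be counted at every time, though below 1 CPM at 3 h and 6 h, and intervals are 95%. The values of 1 listed gene are not reported here.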

Additional observations from a re-analysis of the deposited data

How the results depend on the processing

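The slope test of a change of loss was least precise for ZFP36 (SE 1.27 to 1.35 against siControl), where the change from 0 to 6 h alone gave an SE of 0.355 to 0.383 from the same libraries. The direction of loss of the slower members rests on the spike-in scale. Of 2144 single values of members under the alternatives, 1857 kept their call and sign, 217 were uncalled in both fits with the other sign, 56 were called in 1 fit only and 14 were called in at least 1 fit and had the other sign in the alternative. The cause of these differences was not tested.

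Members called at 0 h numbered 2, 1 and 2 in siIGF2BP1, siIGF2BP2 and siIGF2BP3 against siControl. ERCC scaling gave 0 in siIGF2BP1 and 1 in siIGF2BP3, library-size scaling 1 in siIGF2BP1, and the 4 libraries alone 2 in siIGF2BP2 and 1 between siIGF2BP2 and siIGF2BP3. With the 4 libraries alone, ZFP36L2 in siIGF2BP1 and TIA1 in siIGF2BP3 also passed. Levels averaged over 0, 3 and 6 h gave 4, 2 and 6 against siControl and 3, 1 and 5 between knockdowns (in the order siIGF2BP1 against siIGF2BP2, siIGF2BP1 against siIGF2BP3, siIGF2BP2 against siIGF2BP3), where ZFP36L2 (-0.1875) and ELAVL1 (0.06314) in the first and ZFP36L2 (0.1716) in the last took the other sign. Leaving out each library gave 1 to 1, 1 to 1 and 1 to 2 members against siControl and 0 to 0 between knockdowns, 8 to 8 for loss in siControl and 0 to 0 for a change of loss.

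Loss in siControl took the other sign for KHSRP (0.4013), HNRNPD (0.5619), ELAVL1 (0.1419) and TIA1 (0.4024) with TMM, and for KHSRP (0.08124), HNRNPD (0.2416) and TIA1 (0.0818) with library size. Half-lifetimes from the fitted slope were 1.16 h (ZFP36), 1.696 h (ZFP36L1) and 1.232 h (ZFP36L2), and with TMM 0.9403, 1.672 and 1.204 h and 10.84 h for TIAL1. Early minus late calls were 6, 6 and 5 with TMM and 6, 5 and 5 with library size in siControl, siIGF2BP1 and siIGF2BP3, and in siIGF2BP2 KHSRP (0.2409 and 0.2135) and ELAVL1 (0.243 and 0.2159) took the other sign. Leaving out each library gave 3 to 3, 3 to 4, 3 to 5 and 3 to 3 in the 4 conditions.

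In the study's methods the time points of an siRNA come from the same transfected plate, but the sources used here do not say that a replicate number marks a plate. Deviations of same-numbered libraries correlated with -0.0618 to 0.277 over 66 pairs (median 0.0125), and with -0.0304 to 0.236 over the 12 pairs within a condition, so no pairing was assumed. With a replicate block, 2, 1 and 3 members were called at 0 h (TIA1 in siIGF2BP3 added, 0.15, adjusted p = 0.0251), 0 between knockdowns, 8 for loss, 0 for a change of loss and 3, 3, 4 and 3 for early minus late. A replicate block within each condition, added after seeing the data, gave 8 for loss, 0 for a change of loss and 3, 3, 5 and 3 for early minus late (TIA1 in siIGF2BP2 added, -0.364, adjusted p = 0.0353).

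Over all genes, calls at 0 h against siControl were 2093, 1593 and 1234 (1239 higher and 854 lower, 874 and 719, 647 and 587). With ERCC scaling they were 649, 732 and 471 (253 higher and 396 lower, 563 and 169, 388 and 83), between knockdowns 1585, 875 and 382 in place of 2455, 1879 and 1207, with 238 higher and 1347 lower in place of 1267 and 1188 for siIGF2BP1 against siIGF2BP2 and 98 and 777 in place of 1091 and 788 for siIGF2BP1 against siIGF2BP3. Averaged levels gave 5218, 4440 and 4239, then 5654, 4978 and 3992, and leaving out a library 1265 to 1412, 846 to 978 and 586 to 765. Loss in siControl was called in 10584 genes (33 higher), with TMM in 9858 (4773 higher) and with library size in 9636 (2758 higher). A change of loss was called in 2, 0 and 3 genes, against 86, 72 and 195 from 0 and 6 h alone, 8, 6 and 10 from 0 and 3 h alone, 4, 6 and 27 by DESeq2, 9, 22 and 12 without a filter and 5, 5 and 3 with library size. Without replicate 2 of siControl at 0 h, 540 were called in siIGF2BP3. Early minus late calls were 1651, 1505, 2370 and 1588, with TMM 4163, 3068 and 3185 and with library size 3306, 2576 and 2796 in siControl, siIGF2BP1 and siIGF2BP3.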

Other observations

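Textbook transcripts with AU-rich elements were read beside the members, without data on which proteins bind them. Of 35 listed transcripts with AU-rich elements (immediate-early genes, cytokines, cell cycle and survival genes), 28 were tested. All 28 were called lower over 6 h of actinomycin D in siControl on the ERCC scale, as were 80.3% of all genes. The median log2 change was -3.13 beside -0.885 over all genes. The list was chosen with earlier results of these data known, so its loss is a description and not a test. By the same fitted slope, NFKBIA, the inhibitor of NF-kappaB, fell by 6.998, MYC fell by 6.31 and PLK2 fell by 5.23, beside -5.17 for ZFP36. On the TMM scale 2 of the 28 were called higher and 21 lower, with a median of -2.27. Over all genes that scale gave 4773 higher and 5085 lower, with a median of -0.0159. As for the ZFP36 family, the loss of this list was mostly early. Of the 28, 21 were called for a larger loss from 0 to 3 h than from 3 to 6 h and 1 for a smaller one. The rest were not called, and 10.9% of all genes were called for a larger early loss. The median early minus late value was -1.57 beside 0.0335 over all genes. With TMM scaling 21 were called for a larger early loss and 2 for a smaller one, beside 1775 and 2388 of all genes.

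At 0 h the counts below are on the TMM scale. In siIGF2BP1, 5 were higher and 3 lower than in siControl, in siIGF2BP2 3 were higher and 0 lower, and in siIGF2BP3 1 was higher and 8 lower, where 15.9%, 12.1% and 9.39% of all genes were called. In siIGF2BP3 the cell cycle inhibitor CDKN1A fell by 0.44 and the NF-kappaB regulator TNFAIP3 fell by 0.42. The antiproliferative gene BTG2 rose by 0.62 in siIGF2BP1 and by 0.45 in siIGF2BP2, and cyclin B1 (CCNB1) rose by 0.31 in siIGF2BP2 and by 0.42 in siIGF2BP3. In siIGF2BP1 cyclin D1 (CCND1) fell by 0.31 and the transcription factor gene JUN rose by 0.30, and HIF1A, which encodes the hypoxia-inducible factor subunit, rose by 0.15 in siIGF2BP2. The median of the list in siIGF2BP3 was -0.178, beside 0.00347 over all genes. Between siIGF2BP2 and siIGF2BP3, 11 of the 28 were called, all higher in siIGF2BP2, and between siIGF2BP1 and siIGF2BP3 9 were higher and 1 lower in siIGF2BP1, beside 9.19% and 14.3% of all genes. On the ERCC scale these genes kept their direction, and JUN in siIGF2BP1 (adjusted p = 0.101) and HIF1A in siIGF2BP2 (adjusted p = 0.0866) lost their calls, with 2 higher and 3 lower in siIGF2BP1, 3 and 0 in siIGF2BP2, 1 and 4 in siIGF2BP3, 8 and 0 between siIGF2BP2 and siIGF2BP3, and 6 and 2 between siIGF2BP1 and siIGF2BP3. For a change of loss, 0 of these transcripts were called by edgeR or DESeq2 in any of 6 comparisons. At an unadjusted p under 0.05 in edgeR there were 1, 0 and 1 against siControl and 1, 0 and 0 between knockdowns. Over all genes there were 1436, 896 and 2113 against siControl and 256, 272 and 246 between knockdowns.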
